A study of Mus musculus with 6 samples.

Results

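The dystrophin glycoprotein complex is described here by 9 of its genes, *Dmd*, *Utrn*, *Dag1*, *Sgca*, *Sgcb*, *Sgcd*, *Sspn*, *Dtna* and *Sntb1*, taken by name from the 46078 genes of the count table, which holds each name once. C2C12 cells, an immortalized mouse myoblast line that fuses into myotubes after serum withdrawal, were compared as *Hnrnpa2b1* KO and WT cells after 2 days of differentiation, with 3 libraries of each genotype (KO1–KO3 and WT1–WT3). The KO cells were made with CRISPR-Cas9 and a guide against *Hnrnpa2b1*, which encodes an RNA-binding protein that regulates splicing, and the WT cells received a scrambled guide. All cells were selected with puromycin and grown as clones. The methods describe 3 clones of each genotype without stating which clone gave which library, so p-values measure the spread between these cultures. Only 1 time point was sequenced.

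The complex joins the actin cytoskeleton of a muscle fiber to the extracellular matrix. Dystrophin, the product of *Dmd*, binds actin inside the cell and dystroglycan at the membrane, and dystroglycan binds laminin outside it. The sarcoglycans and sarcospan form a subcomplex in the membrane that strengthens this link, while dystrobrevin and the syntrophins sit on the inner face as a scaffold for signaling proteins. Mutations of *DMD* cause Duchenne and Becker muscular dystrophy, and mutations of the sarcoglycan genes cause limb-girdle muscular dystrophies. Many of its transcripts accumulate as myoblasts become myotubes.

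Upstream sequences of 4 members are shown as examples: *Dmd*, which had almost no reads, its homolog *Utrn*, *Sspn*, which was lower in KO, and *Sgca*, the sarcoglycan used below as the pattern for likeness between genes. Each is the 250 bases before an annotated start, 5′ to 3′ on the strand of the gene, from RefSeq on GRCm38.p6, and overlaps 0 exons of the GENCODE annotation. RefSeq promoters were found for 7 of the 9 members, not for *Dtna* and *Sntb1*, and those of *Dag1*, *Sgcb* and *Sgcd* are not printed. Capitals mark CANNTG, the E-box that myogenic basic helix-loop-helix factors can bind, which reads the same on both strands, and matches may overlap. The windows lie at chrX:82948620-82948869 (+, the first start of *Dmd*), chr10:12861736-12861985 (−, the start of *Utrn* at 12861735, also inside longer annotated transcripts), chr6:145933872-145934121 (+, the start of *Sspn* at 145934122, inside a longer annotated transcript of *Sspn*) and chr11:94976328-94976577 (−, *Sgca*).
Dmd: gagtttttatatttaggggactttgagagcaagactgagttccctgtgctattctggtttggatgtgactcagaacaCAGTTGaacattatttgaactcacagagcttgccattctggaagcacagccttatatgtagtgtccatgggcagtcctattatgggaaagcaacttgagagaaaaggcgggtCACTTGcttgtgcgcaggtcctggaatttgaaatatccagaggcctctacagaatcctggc
Utrn: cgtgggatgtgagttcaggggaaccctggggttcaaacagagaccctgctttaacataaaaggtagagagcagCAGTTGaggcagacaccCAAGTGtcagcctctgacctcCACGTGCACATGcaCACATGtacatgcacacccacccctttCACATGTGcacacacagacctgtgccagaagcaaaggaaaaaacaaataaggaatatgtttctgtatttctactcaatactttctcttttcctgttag
Sspn: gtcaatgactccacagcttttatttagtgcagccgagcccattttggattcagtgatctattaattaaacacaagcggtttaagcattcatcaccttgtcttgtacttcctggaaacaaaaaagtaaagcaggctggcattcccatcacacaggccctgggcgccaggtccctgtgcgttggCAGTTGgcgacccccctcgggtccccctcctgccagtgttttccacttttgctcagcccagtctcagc
Sgca: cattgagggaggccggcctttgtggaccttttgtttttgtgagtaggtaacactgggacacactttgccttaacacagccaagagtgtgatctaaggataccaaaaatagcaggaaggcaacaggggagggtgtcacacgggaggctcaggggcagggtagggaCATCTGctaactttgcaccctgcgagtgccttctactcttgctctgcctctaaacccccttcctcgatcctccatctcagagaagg

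The *Utrn* window held 7 matches, that of *Dmd* 2, and those of *Sspn* and *Sgca* 1 each. The windows before a second RefSeq start of *Dmd* (chrX:85048045-85048294) and of *Sspn* (chr6:145931623-145931872), not printed here, held 0. Among 32851 windows of the same length before RefSeq starts, 66.2% held at least 1 match, with a mean of 1.16 per window. The narrower CAGCTG was in 4271 of the 32851 windows and in 0 of these 4. The printed *Dmd* window also held 1 CArG box, a site for serum response factor, found in 1.47% of all windows, and the window before the second *Dmd* start held 0. A match describes the letters of the window and is not evidence of binding.

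Libraries held 33605258 to 40558740 reads counted on genes. CPM (reads relative to library size, scaled by TMM factors) were used for comparisons of the same gene between libraries, and TPM, which is corrected for transcript length, for levels between genes. The edgeR quasi-likelihood test, with p adjusted over all 14828 genes tested, called 3361 genes at an adjusted p under 0.05 (22.7%), 1796 higher in KO (12.1%) and 1565 lower (10.6%). Of the calls 53.4% were thus higher in KO, whereas 66.2% were with scaling by library totals and 41.8% in TPM (989 higher and 1377 lower, limma). The targeted gene *Hnrnpa2b1* was not reduced beyond the spread of the libraries, with 159, 195 and 249 CPM in KO1–KO3 and 225, 229 and 252 in WT1–WT3 (log2 fold change −0.23, SE 0.18, adjusted p = 0.381). Counts over a whole gene do not show whether its reading frame is intact.

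Of the 9 members, 8 passed the filter on low counts. In KO cells 2 of the 8 were lower, *Dtna*, which encodes α-dystrobrevin, and *Sspn*, which encodes sarcospan, and 0 were higher. The share called, 25.0% of 8 genes, was close to the 22.7% of all tested genes with all 6 libraries. This comparison moved with single libraries. Without KO1 6 members were called, against 30.6% of all genes, and without any 1 of the others 2 were called, against 6.01% (WT1), 8.43% (WT3), 13.6% (WT2), 13.9% (KO3) and 17.7% (KO2) of all genes. *Sntb1* (β1-syntrophin) was at about 0.478 times its WT level with an adjusted p of 0.0868, the 3 sarcoglycans had log2 fold changes between −0.59 and −0.37 that were not called, and *Dag1* and *Utrn* differed by 0.17 or less on the log2 scale. The median log2 fold change of the 8 members was −0.51, against 0.03 over all tested genes, and without KO1 it was −0.90, against 0.03. KO and WT libraries did not overlap in CPM in 3 of the 8 members, *Dtna*, *Sspn* and *Sntb1*, where 44.3% of all tested genes did not overlap. In TPM the highest KO value of *Sgca* (49.2, KO1) was also below the lowest of WT (50.4, WT2). The share of all genes without overlap in TPM was not computed.

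**Figure D1:**
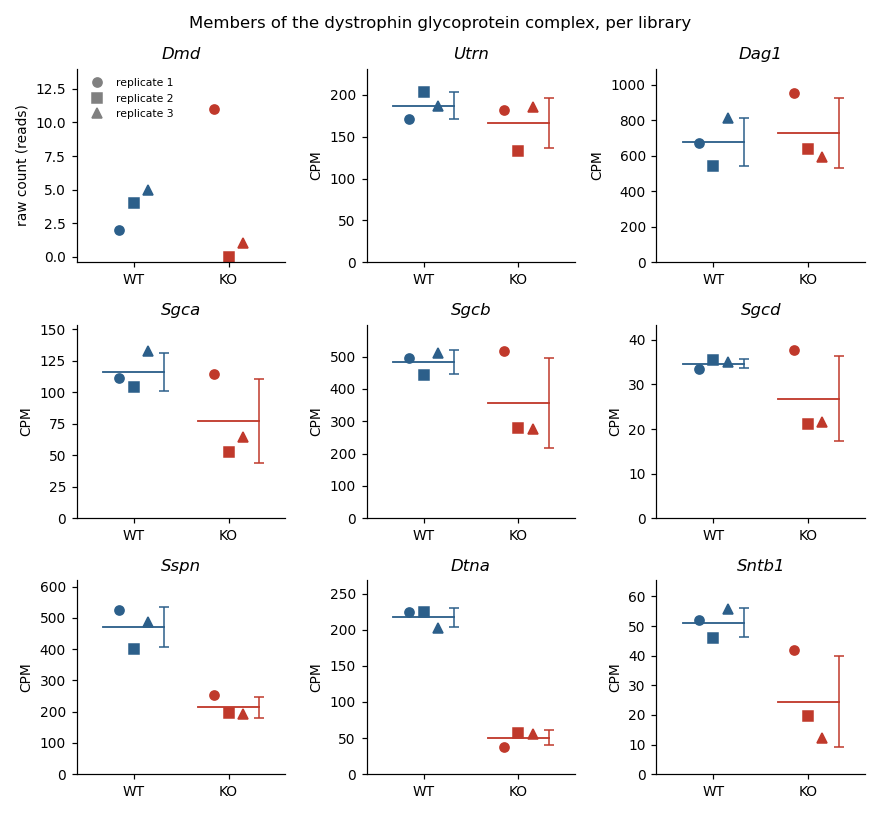
Level of each member in each library, as CPM with the mean (line) and SD (bar) of each genotype, or as raw reads for *Dmd*, which was too low to be tested. WT libraries are blue, KO libraries red, and symbols mark replicates 1 to 3. All KO libraries lie below all WT libraries for *Sspn*, *Dtna* and *Sntb1*, whereas for *Sgca*, *Sgcb* and *Sgcd* KO1 lies at the WT level and KO2 and KO3 below it.

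*Dmd* (ENSMUSG00000045103) spans 2.26 Mb of chromosome X, from 82948870 to 85206141 on the plus strand. It had 11, 0 and 1 reads in KO1–KO3 and 2, 4 and 5 in WT1–WT3. Few or no reads were thus counted on *Dmd* in both genotypes, where 3 reads correspond to 0.0687 to 0.0914 CPM, and no fold change is given. Its TPM were also 0.0156 or less in every library. Both long transcripts and short ones that begin at 85048413, near the end of the gene, are part of the annotated gene. Genes on either side were read. *Tmem47*, 1851 kb before *Dmd*, had 1940 to 6501 reads, *Tab3*, 367.9 kb after it, had 192 to 386, and *Gyk*, 495.8 kb after it, had 137 to 371; these were chosen after the values were seen, as the nearest genes with a total of at least 500 reads together with the predicted gene *Gm8822*, which had 236 to 401. The 5 annotated features that overlap *Dmd* had 7 reads or fewer in any library. Whether the annotation used for counting or the cell line has a part in this low count was not tested.

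*Utrn* (ENSMUSG00000019820, chromosome 10, 12382188 to 12861735, minus strand) encodes utrophin, the autosomal homolog of dystrophin that binds the same partners and is enriched at the neuromuscular junction. Its CPM were 182, 132 and 186 in KO1–KO3 and 172, 203 and 187 in WT1–WT3, so the genotypes overlapped. The log2 fold change was −0.17 (SE 0.16, adjusted p = 0.487 in edgeR; exact permutation test, two-sided, p = 0.4, where 0.1 is the smallest p that 3 libraries against 3 allow). *Utrn* was read 5782 to 7617 times in each library in which *Dmd* had at most 11 reads. In TPM it was 9.13 ± 2.33 in KO and 10.2 ± 1.16 in WT (SD, n = 3), and no ratio to *Dmd* is given because the TPM of *Dmd* were listed at 0 in KO2 and KO3.

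*Dag1* (ENSMUSG00000039952, chromosome 9, 108204634 to 108263958, minus strand) encodes the precursor that is cleaved into α-dystroglycan, which binds laminin, and β-dystroglycan, which spans the membrane. It had 953, 637 and 592 CPM in KO1–KO3 and 675, 540 and 811 in WT1–WT3. KO1 was the highest library of all, and the other KO libraries lay within the WT range. The log2 fold change of 0.11 (SE 0.24, adjusted p = 0.770) did not exceed the variation between replicates and turned negative without KO1 (−0.14) or WT2 (−0.04).

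The sarcoglycans are single-pass membrane proteins that assemble into 1 subcomplex, and all 3 members shared a pattern over the libraries. *Sgca* (ENSMUSG00000001508, chromosome 11, 94962791 to 94976327, minus strand), which encodes α-sarcoglycan, had 115, 52.2 and 64.2 CPM in KO1–KO3 and 112, 104 and 133 in WT1–WT3. *Sgcb* (ENSMUSG00000029156, chromosome 5, 73632749 to 73647790, minus strand), which encodes β-sarcoglycan, had 519, 278 and 277 CPM in KO1–KO3 and 497, 442 and 512 in WT1–WT3. *Sgcd* (ENSMUSG00000020354, chromosome 11, 46896253 to 47988969, minus strand), which encodes δ-sarcoglycan, had 37.8, 21.1 and 21.6 CPM in KO1–KO3 and 33.5, 35.5 and 35.1 in WT1–WT3. In CPM, KO1 lay in or above the WT range in each of the 3 genes, and KO2 and KO3 lay below every WT library. In TPM *Sgca* in KO1 was at 49.2, below the 50.4 to 58.1 of the WT libraries.

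With all 6 libraries and the filter on low counts none of the 3 passed the threshold in edgeR, whereas with no filter *Sgca* did (adjusted p = 0.0104). The log2 fold changes were −0.59 for *Sgca* (SE 0.28, adjusted p = 0.156), −0.43 for *Sgcb* (SE 0.26, adjusted p = 0.252) and −0.37 for *Sgcd* (SE 0.23, adjusted p = 0.271). Without KO1 all 3 passed it, at −1.0 (adjusted p = 0.00376), −0.81 (adjusted p = 0.00701) and −0.70 (adjusted p = 0.00752). That fit called 30.6% of all genes tested and 6 of the 8 members, all lower in KO, leaving *Utrn* and *Dag1*. It compares KO2 and KO3 with WT. The 76 tested genes within 5 Mb of *Sgcd* had a median log2 fold change of −0.28, against 0.08 for the 107 around *Sgca* and 0.16 for the 45 around *Sgcb*; the part of the neighborhood in the value of *Sgcd* was not tested.

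*Sspn* (ENSMUSG00000030255, chromosome 6, 145931641 to 145965223, plus strand) encodes sarcospan, a protein with several membrane spans that associates with the sarcoglycans. It had 253, 195 and 193 CPM in KO1–KO3 and 525, 399 and 488 in WT1–WT3. Every KO library, KO1 included, was below every WT library. *Sspn* was thus 2.20-fold lower in KO (log2 fold change −1.14, SE 0.18, adjusted p = 0.00593; exact two-sided permutation test, p = 0.1). In TPM it was 32.6 ± 3.50 in KO and 72.2 ± 9.26 in WT (SD, n = 3), and limma on log2(TPM + 1) gave −1.12 (SE 0.16, adjusted p = 0.00311). An annotated antisense gene, *Sspnos*, overlaps *Sspn*, and had 6 to 19 reads in any library; whether the counting used strand is not stated. The 45 tested genes within 5 Mb had a median log2 fold change of 0.01.

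*Dtna* (ENSMUSG00000024302, chromosome 18, 23415415 to 23659714, plus strand) encodes α-dystrobrevin, which binds dystrophin and syntrophins on the inner face of the membrane. It had 38.1, 57.5 and 55.8 CPM in KO1–KO3 and 224, 225 and 202 in WT1–WT3. No other member differed as much, and here KO1 was the lowest library. *Dtna* was 4.30-fold lower in KO (log2 fold change −2.11, SE 0.18, adjusted p = 0.000812; exact two-sided permutation test, p = 0.1). The 24 tested genes within 5 Mb had a median log2 fold change of 0.29. In TPM, *Dtna* was 8.08 ± 1.14 in KO and 26.1 ± 2.61 in WT (SD, n = 3), a log2 difference of −1.58 (SE 0.16, adjusted p = 0.000783 in limma), smaller than the difference in counts.

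The counts of *Dtna* per unit of TPM also differed between the genotypes. This quotient depends on the transcript length that the quantification assigned to the gene, and on how reads were assigned for each measure. The part of each was not tested. The quotient was taken relative to the median of 10116 genes in the same library. It was 1.37, 1.64 and 2.12 in KO1–KO3 and 2.26, 2.30 and 2.23 in WT1–WT3, so all KO libraries were lower (log2 difference −0.43; exact two-sided permutation test, p = 0.1). A difference at least as large was present in 1.54% of the 10116 genes. *Dtna* has several annotated transcripts of different lengths, among them coding transcripts that end at 23545725, 23604231, 23635777 and 23659715. Which of them were present was not tested, since the values used are per gene. Among the other 7 tested members the largest such difference was 0.0519 on the log2 scale, for *Sgcd*.

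*Sntb1* (ENSMUSG00000060429, chromosome 15, 55638843 to 55906949, minus strand) encodes β1-syntrophin, an adaptor that binds dystrophin and dystrobrevin. It had 41.8, 19.5 and 12.1 CPM in KO1–KO3 and 52.0, 46.0 and 55.6 in WT1–WT3. The genotypes did not overlap, but the KO libraries spread over more than a 3-fold range. The log2 fold change was −1.06 (SE 0.39, adjusted p = 0.0868), and the test with edgeR did not pass. It passed with DESeq2 (−1.09, adjusted p = 0.0185), without KO1 (−1.70, adjusted p = 0.00142) and in TPM, where limma called 20.2% of the 11691 genes it tested and 3 of the 8 members, *Dtna*, *Sspn* and *Sntb1* (−1.11, SE 0.29, adjusted p = 0.0280). Over all alternatives the adjusted p of *Sntb1* lay between 1e-05 and 0.202.

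**Figure D2:**
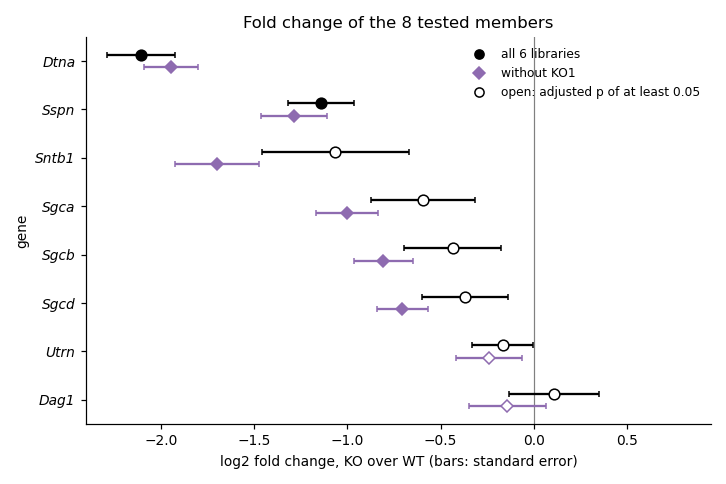
Log2 fold change of KO over WT in CPM with its standard error for the 8 tested members, from all 6 libraries (black circles) and without KO1 (purple diamonds). Filled symbols passed an adjusted p of 0.05 in edgeR. *Dtna* (−2.11) and *Sspn* (−1.14) were called in both fits, and *Sntb1*, *Sgca*, *Sgcb* and *Sgcd*, of these fits, in the one without KO1.

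Library KO1 also stood apart from KO2 and KO3 in many genes of muscle maturation. A list of 16 genes of the contractile apparatus of myotubes (myosins, troponins, *Acta1*, *Ttn*, *Neb*, *Ckm* and others) had summed TPM of 9361, 3505 and 3934 in KO1–KO3 and of 10164, 7012 and 9276 in WT1–WT3. On the log2 scale, its genes differed from their WT mean by a median of −0.02 (KO1), −1.36 (KO2) and −1.58 (KO3). For the 8 tested members it was −0.02, −0.97 and −0.82 in the same order. The list had 3 genes lower in KO, *Tcap* (−3.39, adjusted p = 0.00927), *Actn2* (−2.94, adjusted p = 0.00212) and *Myl1* (−2.39, adjusted p = 0.0297), against 10.6% of all tested genes, and 11 of the 16 were called without KO1, against 30.6%. In KO1 the genes of the list went both ways. *Actn2* lay below every WT library (63.6 CPM against 269 to 480), as did *Myl1* (634 against 1125 to 2023). *Tcap* did too (2.85 against 6.58 to 24.0). *Acta1* (7023 against 2958 to 4188) and *Tnnt3* (2381 against 1139 to 1924), which were not called, lay above every WT library. The median log2 fold change of the list was −0.86, and −1.48 without KO1. *Myl1* no longer passed the threshold when WT1 (adjusted p = 0.102), WT3 (0.0813), KO2 (0.0699) or KO3 (0.0616) was left out. The part of the differentiation state of each library in the levels of the members was not tested. In bulk RNA, fewer differentiated cells and less RNA per cell cannot be told apart.

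Over the 6 libraries, log2 CPM of *Sgca* followed that of *Sgcb* (Pearson's r = 0.972), *Sgcd* (0.954) and *Sntb1* (0.897) more closely than that of *Sspn* (0.820), *Utrn* (0.668), *Dtna* (0.543) and *Dag1* (0.506). These values describe 6 libraries that fall into 2 genotypes and share their scaling, and no test was made. Of 5256 other genes whose log2 CPM averaged 5 or more, the most alike were *Atg9a* (r = 0.998), which encodes a membrane protein of autophagy, *Cacna2d1* (0.997), which encodes an auxiliary subunit of calcium channels, and *Npnt* (0.995), which encodes the matrix protein nephronectin. *Npnt*, for instance, had 387, 118 and 144 CPM in KO1–KO3 and 415, 346 and 497 in WT1–WT3. The same comparison could not be made for *Dmd*, which was not tested.

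**Figure D3:**
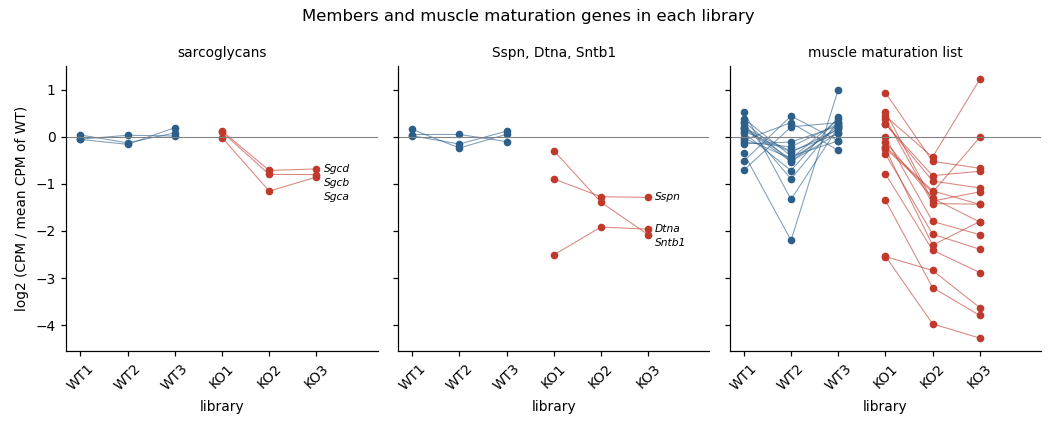
Level of single genes in each library relative to their mean in WT, as log2 of the CPM ratio, for the sarcoglycans, for *Sspn*, *Dtna* and *Sntb1*, and for 16 muscle maturation genes. Lines join the values of 1 gene and imply no order of libraries. KO1 lies near 0 for *Sgca*, *Sgcb*, *Sgcd* and many maturation genes, whereas *Dtna* is lowest in KO1.

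In WT cells the order of the members by TPM, a level per transcript length, was *Dag1* (89.9 ± 10.7, SD, n = 3), *Sgcb* (86.6 ± 3.80), *Sspn* (72.2 ± 9.26), *Sgca* (54.0 ± 3.89), *Dtna* (26.1 ± 2.61), *Sgcd* (14.1 ± 0.850), *Sntb1* (13.7 ± 0.635) and *Utrn* (10.2 ± 1.16), with *Dmd* at 0.00386 ± 0.00249. The ranges of the neighbors *Dag1* and *Sgcb*, and of *Sgcd* and *Sntb1*, overlapped, and the other neighbors in this order did not. Within the sarcoglycan subcomplex, RNA levels were unequal. *Sgcb* was 6.16 ± 0.553 times *Sgcd* in WT and 6.08 ± 0.177 times in KO (SD, n = 3), and the libraries of the genotypes overlapped in this ratio. It was 1.61 ± 0.112 times *Sgca* in WT and 1.84 ± 0.210 times in KO, with every KO library above every WT library. In KO cells most neighbors overlapped. *Dag1* led with 97.8 ± 22.8 TPM, followed by *Sgcb* (63.4 ± 19.3), *Sgca* (35.3 ± 13.1), *Sspn* (32.6 ± 3.50), *Sgcd* (10.4 ± 3.16), *Utrn* (9.13 ± 2.33), *Dtna* (8.08 ± 1.14) and *Sntb1* (6.26 ± 3.43).

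The make-up of the complex's RNA is given as each member's share of the summed TPM, a description without a test. KO and WT libraries did not overlap in the shares of *Dag1*, *Sspn*, *Dtna* and *Sntb1*. *Dag1* made up 36.8%, 37.4% and 37.5% in KO1–KO3 and 24.7%, 22.7% and 26.0% in WT1–WT3. *Sspn* made up 10.7%, 13.9% and 13.5% in KO and 21.3%, 18.7% and 18.9% in WT, and *Dtna* 2.08%, 4.46% and 3.24% in KO and 7.11%, 8.11% and 6.24% in WT. The share of *Sgcb* was 22.8% to 25.6% in KO and 23.2% to 24.3% in WT. The shares are bound to sum to the whole, so a lower share of 1 member raises those of the others. *Sspn* per *Sgcb* was 0.416, 0.597 and 0.591 in KO1–KO3 and 0.909, 0.772 and 0.816 in WT1–WT3. *Sspn* was thus lower in KO relative to a partner in the same subcomplex, also in KO1, where *Sgcb* itself was at the WT level. The summed TPM of the members were 332, 206 and 251 in KO1–KO3 and 387, 343 and 371 in WT1–WT3.

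**Figure D4:**
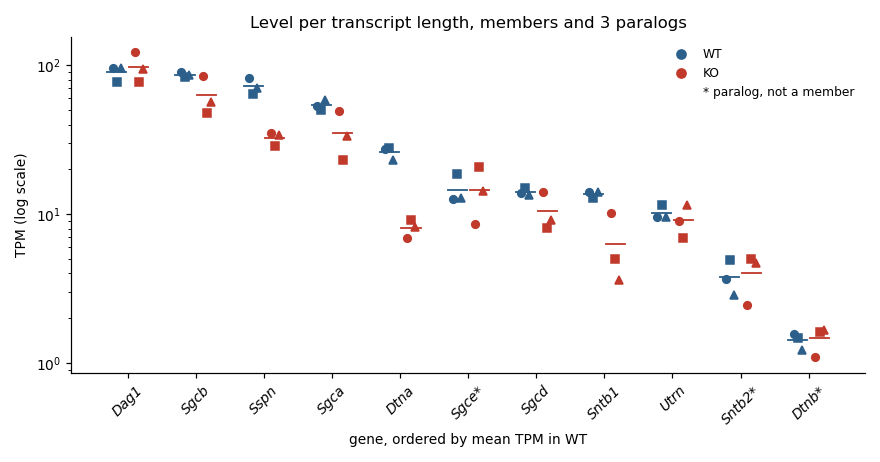
TPM of 8 members and of 3 close paralogs (asterisks) in each library on a log axis, WT in blue and KO in red, with the mean of each genotype as a line. *Dmd* (at most 0.0156 TPM) is left out. *Dag1*, *Sgcb* and *Sspn* lead in WT, and by its mean *Dtna* drops from the fifth place to below *Utrn* in KO. In KO2 *Dtna* (9.18 TPM) lies above *Utrn* (6.86 TPM).

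Several members have paralogs that can take their place in the complex. Of the 8 paralogs described here 4 were tested. Of these 4, 0 were called by edgeR, against 22.7% of all tested genes. By DESeq2 0 were called, against 13.8% of 30252 genes, which include low genes that the edgeR filter removes. An unadjusted p under 0.05 in edgeR was found for 0 of them, against 39.0% of all tested genes. *Sgce*, which encodes ε-sarcoglycan and is widely expressed, was at −0.05 (SE 0.29, adjusted p = 0.919) and *Dtnb*, which encodes β-dystrobrevin, at 0.09 (SE 0.22, adjusted p = 0.786). *Sntb2*, which encodes β2-syntrophin, was at 0.08 (SE 0.26, adjusted p = 0.841). The sign of each of these 3 changed under at least 1 alternative. *Drp2*, the other paralog tested, was at −0.10 (SE 0.17, adjusted p = 0.707 in edgeR), with 8.14 to 11.2 TPM in WT. *Sgcz* had at most 0.0732 CPM and was not tested.

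Of the 16 genes described here that glycosylate α-dystroglycan or supply its sugars, 15 were tested, with 1 lower in KO (10.6% of all genes), 0 higher (12.1% of all genes) and a median log2 fold change of 0.14. *Dpm3*, which encodes a subunit of dolichol-phosphate mannose synthase, had 7.58, 10.4 and 6.64 CPM in KO1–KO3 and 18.6, 18.4 and 16.7 in WT1–WT3 (−1.12, SE 0.20, adjusted p = 0.00870).

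Of 10 extracellular ligands of dystroglycan 2 were lower in KO, 0 were higher and the median was −0.25. Without KO1 the median was −0.06, and *Lamb1*, which encodes the β1 chain of laminin, was then higher (0.59, adjusted p = 0.0370). With 2 of 10 called in all 6 libraries, the share was near the 22.7% of all tested genes. *Lama2*, which encodes the α2 chain of the main laminin of muscle basement membrane, had 42.5, 69.9 and 85.4 CPM in KO1–KO3 and 268, 292 and 354 in WT1–WT3. It fell by 2.21 on the log2 scale (SE 0.26, adjusted p = 0.00252), and KO1 was the lowest library, as for *Dtna*. *Lamb2*, which encodes the β2 chain, fell by 0.94 (SE 0.17, adjusted p = 0.0101), with 157, 121 and 151 CPM in KO1–KO3 and 230, 273 and 322 in WT1–WT3.

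Among 13 intracellular partners 10 were tested, with 2 lower in KO, 1 higher and a median of −0.20, where 10.6% of all tested genes were lower and 12.1% higher. Without KO1 5 of them were called, against 30.6% of all genes in that fit, and the median was −0.32. The ankyrins *Ank2* (−1.87, SE 0.42, adjusted p = 0.0186) and *Ank3* (−1.15, SE 0.21, adjusted p = 0.00981), adaptors that help to place dystrophin at the membrane, were lower. *Nos1*, which encodes the neuronal nitric oxide synthase that syntrophins anchor, had 13.2, 2.29 and 20.1 CPM in KO1–KO3 and 0.752, 1.19 and 0.970 in WT1–WT3. It rose by 3.61 (SE 0.72, adjusted p = 0.0129), with a range of 2.29 to 20.1 CPM between KO libraries. Without WT1 the calls of *Ank2*, *Ank3* and *Nos1* were all lost (adjusted p of 0.0606, 0.0519 and 0.0672), that of *Ank2* also without WT2 (0.0522) and that of *Nos1* also without WT3 (0.0588).

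**Figure D5:**
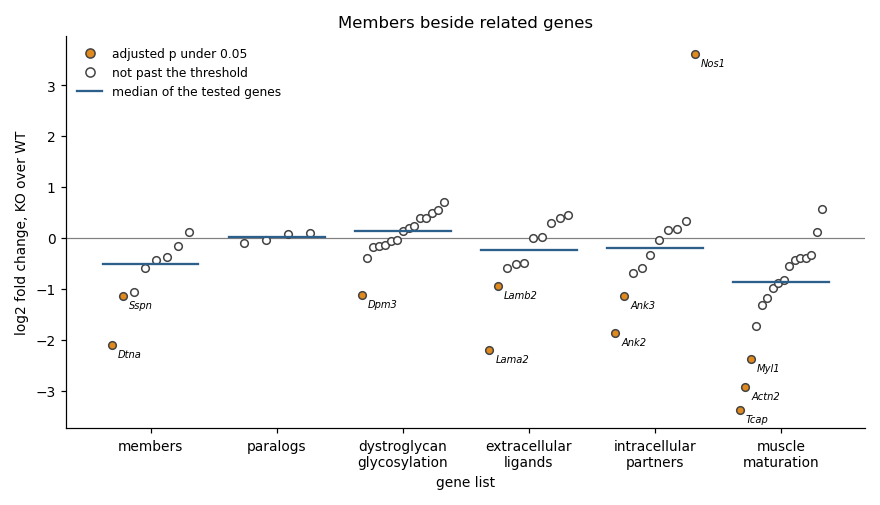
Log2 fold change of KO over WT in CPM for the tested members and for the tested genes of 5 related lists, with the median of each list as a line and genes past an adjusted p of 0.05 in edgeR filled and named. The medians are −0.51 for the members, between −0.25 and 0.14 for the paralogs, glycosylation genes, ligands and partners, and −0.86 for the muscle maturation genes, and without KO1 that of the members is −0.90.

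The cells carried markers of differentiating myoblasts in all libraries, with summed TPM of 3099 to 6783 over 8 markers in KO and 4326 to 5719 in WT. Of these 8, *Myod1* (0.99) and *Cdh15* (0.70) were higher in KO, 2 of 8 against 12.1% of all tested genes, and the list's median was −0.14. Without KO1 6 of the 8 were called, against 30.6% of all genes in that fit, and the median was −0.69. Of these, *Myh3* (−2.04), *Ckm* (−1.29), *Tnnt3* (−1.27) and *Des* (−0.78) were lower. *Myh3*, *Ckm*, *Tnnt3* and *Acta1* are also in the muscle maturation list, so the 2 lists are not independent. Fibroblast markers moved with the genotype. The summed TPM of *Pdgfra*, *Ly6a*, *Dpt* and *Lum* were 47.2 to 89.7 in KO and 7.56 to 8.40 in WT. Most of it came from *Ly6a*, with 31.9 to 67.8 TPM in KO and 6.86 to 7.65 in WT. All 3 tested were higher, against 12.1% of all tested genes, and *Dpt* ranged from 3.78 to 56.3 CPM in KO. *Lum* was not tested, and its libraries overlapped between the genotypes. Markers of reserve cells were at 35.5 to 70.6 TPM in KO and 17.1 to 21.9 in WT, with *Pax7* and *Cd34* higher and *Spry1* lower. Their part in the levels of the members was not tested. Markers of smooth muscle were at 1321 to 1615 TPM in KO and 1443 to 1806 in WT, nearly all from *Acta2*, with 0 of 3 called. Endothelial markers summed to at most 0.217 TPM (with *Kdr* lower in KO at this level), Schwann cell markers to at most 0.291 and leukocyte markers to at most 1.76. Adipocyte markers summed to 1.38 to 3.65 TPM in KO and 1.05 to 1.17 in WT, from *Cebpa*, which was higher, while *Adipoq*, *Plin1* and *Fabp4* had at most 3 reads in any library.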

How the data were processed

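Ribosomal RNA was depleted before library preparation, with 3 cultures of each genotype. The authors aligned with STAR and deposited raw gene counts, not normalized, as well as TPM values from StringTie. All 6 count columns were used and 0 were left unused. The submitters' notes name mm9 and the methods GRCm39, whereas the deposited positions fit GRCm38 (99.9% of 45137 genes overlap the same GENCODE M21 gene), so positions are on GRCm38. Annotation release and strand setting are not given in the sources used here.

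Counts were scaled by TMM, filtered with filterByExpr and tested with edgeR 4.0.16 (quasi-likelihood, two-sided, Benjamini-Hochberg over all genes, threshold 0.05). The SE given with edgeR values was derived from the test, as the absolute log2 fold change divided by the square root of the quasi-likelihood F. TPM were tested with limma 3.58.1 on log2(TPM + 1) over genes with at least 1 TPM in at least 3 libraries, where log2 differences understate changes of low genes. DESeq2 1.42.0 was an alternative. The tools ran in R 4.3.3 and were tested on simulated data. Named genes were all 9 members, *Hnrnpa2b1*, up to 6 called genes of each related list, close paralogs, and 3 genes most like *Sgca*. The members and lists were chosen with earlier results of these data known. Some genes of the paralog and glycosylation lists are not reported here, and the counts, medians and plots of these lists leave them out, so that they do not describe the whole lists. Splicing was not analysed here.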

Additional observations from a re-analysis of the deposited data

How the results depend on the processing

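*Dtna* and *Sspn* kept their direction and their call in all 14 alternatives, between −2.20 and −1.58 and between −1.29 and −1.03 on the log2 scale, and *Utrn* was never called. Leaving out each library in turn, the number of members called lay between 2 and 6 and that of all genes between 933 (without WT1) and 4712 (without KO1). Over the same 6 fits *Dag1* lay between −0.14 and 0.24, *Sgca* between −1.0 and −0.38, *Sgcb* between −0.81 and −0.28, *Sgcd* between −0.70 and −0.22 and *Sntb1* between −1.70 and −0.74. Among paralogs, *Sgce* lay between −0.44 and 0.17, *Dtnb* between −0.0102 and 0.21 and *Sntb2* between −0.16 and 0.30. With no filter on low counts 4 members were called, adding *Sgca* (−0.62, adjusted p = 0.0104) and *Sntb1* (−1.09). That fit called 15.0% of 30252 genes, which include the low genes that the filter removes, so this share is no like background for the members. *Sntb1* was also called with DESeq2 (−1.09), limma on log2(TPM + 1) (−1.11) and a pseudocount of 0.1 (−1.24), but not with no filter on TPM (−1.11, adjusted p = 0.157). All genes called in TPM were 2366, 989 of them higher, 2114 with that pseudocount, 937 of them higher, and 1056 with no filter on TPM, 432 of them higher. Scaling by library totals moved the median of all genes by 0.12 and called 3469 genes, 2295 higher and 1174 lower (66.2% higher, against 53.4% of 3361), *Sgce* was then at 0.0816, and 2 of the glycosylation genes were called in place of 1. Why these values moved was not tested.

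Replicate numbers did not pair the libraries (correlations of same-numbered deviations 0.137, −0.116 and 0.00413). With a replicate block 2520 genes and the same number of members, 2, were called, with *Dtna* at −2.13, *Sspn* at −1.14 and *Sntb1* at −1.24 (adjusted p = 0.0573). *Dmd* cannot be compared at 11 reads or fewer, and the effect of depth on the other members was not tested.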
